A study of Mus musculus with 35 samples.

Results

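JNK-inhibited NMuMG cells, a mouse mammary gland epithelial line, were compared at 7 d and at 96 h, to ask which genes reversed and which went further late in the treatment. A gene was included when its mean was at least 10 normalized reads in either group, and 13707 of the 20261 genes in the table met this. By the same rule 13078 genes were counted in vehicle cells. Just inside the limit stood A730037C10Rik with means of 10.0 at 96 h and 9.05 at 7 d, and Gpr98 with 0.95 and 10.05. Just outside stood Serpine3 with 9.9 and 6.6, and Gdap1l1 with 8.15 and 9.8.

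The study sequenced RNA from 35 samples to follow JNK signalling in the epithelial-mesenchymal transition (EMT), and 20 of them form the inhibitor experiment used here. Cells received DMSO, the vehicle, or JNKi, an inhibitor of the kinase JNK whose compound the labels do not name, and 2 samples per arm were taken at each of 24, 48, 72 and 96 h and 7 d. All groups share the labels wild type and strain E9, so they are 1 line. The protocol given for the time course has transforming growth factor β (TGF-β) at 2 ng/ml, renewed with the medium every 2 days. The treatment label of the inhibitor samples names only DMSO or JNKi. Medium age and cell number at harvest are not given, so they cannot be told apart from time. Whether replicates were grown separately is not given in the labels. The p-values therefore reflect the spread between these samples alone, and that spread may be technical.

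TGF-β drives EMT through Smad proteins and through kinases that include JNK. JNK phosphorylates Jun, a member of the AP-1 family of transcription factors, which act on matrix, protease and cytokine genes. During EMT, epithelial cells lose junctions such as those built on E-cadherin (Cdh1) and make matrix proteins such as fibronectin (Fn1), while TGF-β also slows the division of many epithelial cells.

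The 20 libraries held between 9.49 and 48.6 M reads. JNKi 7 d replicate 1 was the shallowest at 9.49 M, against 36.6 M in replicate 2 and 43.8 and 34.9 M at 96 h. It also stood apart in a few genes, with 15936 RPM (reads per 1 M reads) on Lars2, a mitochondrial leucyl-tRNA synthetase gene, against 1699 in replicate 2 and 1112 and 2281 at 96 h. Rmrp, a small noncoding RNA, took 80 RPM in that library and 1.34 in replicate 2. Over 523 olfactory and vomeronasal receptor genes, which mammary cells are not known to use, RPM summed to 4.02 and 4.21 at 96 h and 15.8 and 14.4 at 7 d. The vehicle libraries had 2.71 and 2.61 at 96 h and 8.59 and 7.11 at 7 d. Receptor genes that met the limit for inclusion were left out of this set. At 7 d its highest values were 11.1 and 11.2 normalized reads, which this selection holds near that limit. They are therefore not a measured ceiling of the background. The part of this background in rises of low genes was not tested.

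The labelled cell type was checked against epithelial markers. Krt8, a keratin of simple epithelia, had 59280 and 54021 normalized reads at 96 h and 49801 and 44774 at 7 d and did not pass limma's test (adjusted p 0.192). Its partner Krt18 had 61336 and 61249, then 46271 and 44049 (adjusted p 0.0149), and did not pass without any 1 of JNKi 96 h replicate 1, 96 h replicate 2 and 7 d replicate 2 (0.0663, 0.0722 and 0.0877). Cdh1 had 8279 and 7045 at 96 h. Defining markers at or near 0 were Epcam, with 0 in both 96 h libraries and 11.1 and 12.6 at 7 d, and Cldn7, with at most 2.5 in any of the 4 libraries. The summed epithelial markers went from 144644 and 138091 at 96 h to 114204 and 106626 at 7 d. In such bulk samples, fewer cells of a type and less RNA per cell cannot be told apart.

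Between 96 h and 7 d JNK-inhibited cells raised all listed mitotic genes and many genes of replication, sterol synthesis, the interferon response and chemokines. They lowered fibronectin, tenascin-C, 5 of 10 EMT transcription factors and 16 of 28 amino acid response genes. Of the 13707 genes, 5501 passed limma's test on log2(value + 1) at an adjusted p (Benjamini-Hochberg) of 0.05, with 3199 higher and 2302 lower at 7 d. Over all 13896 genes tested the share called was 39.7%, with 23.2% higher and 16.6% lower. Large changes were mostly rises, with 1464 genes higher and 69 lower by at least 2-fold. Where both group means reached 100, which held for 10192 genes, 1891 were higher and 2245 lower, of which 285 and 50 by at least 2-fold. A further 1211 genes reached the limit of 10 only at 7 d, and 686 of these were called, all higher, as their selection requires. Counts of lists below are therefore also given over members with a mean of at least 10 at 96 h wherever other members of the list were called. All such counts are to be read beside the shares over all genes tested, and many lists lie not far from them. Of the 12444 genes with a mean of at least 10 at both times, 2513 were higher and 2294 lower. On simulated data the same test called more unchanged genes than its nominal share, so some of the genes counted here may be such calls. The median change over all members was 0.07, beside which the medians of lists below are to be read. Unlike the counts, those medians are over all members of a list, so members included only through 7 d can raise them. Leaving out JNKi 96 h replicate 2 left 3337 genes called.

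The same model gave 3 further comparisons. In vehicle cells over the same interval 5032 of the members were called, 2883 higher and 2149 lower (36.5% of all genes tested, with 21% higher and 15.5% lower). Without DMSO 96 h replicate 2 or 7 d replicate 2, 3063 and 2593 were called. In JNKi cells at 72 h against 24 h, 5461 members were called, 2834 higher and 2627 lower (39.7% of all genes tested, with 20.6% higher and 19.1% lower), and 3150 and 3540 without JNKi 24 h or 72 h replicate 2. Without a term for the replicate number, the late change differed between the arms in 11 members, or 0.0792% of all genes tested. With such a term within each time, 719 members were called. A change below is a log2 fold change on the log2(value + 1) scale with its standard error (SE), from 2 libraries a group, and each adjusted p is limma's.

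**Figure D1:**
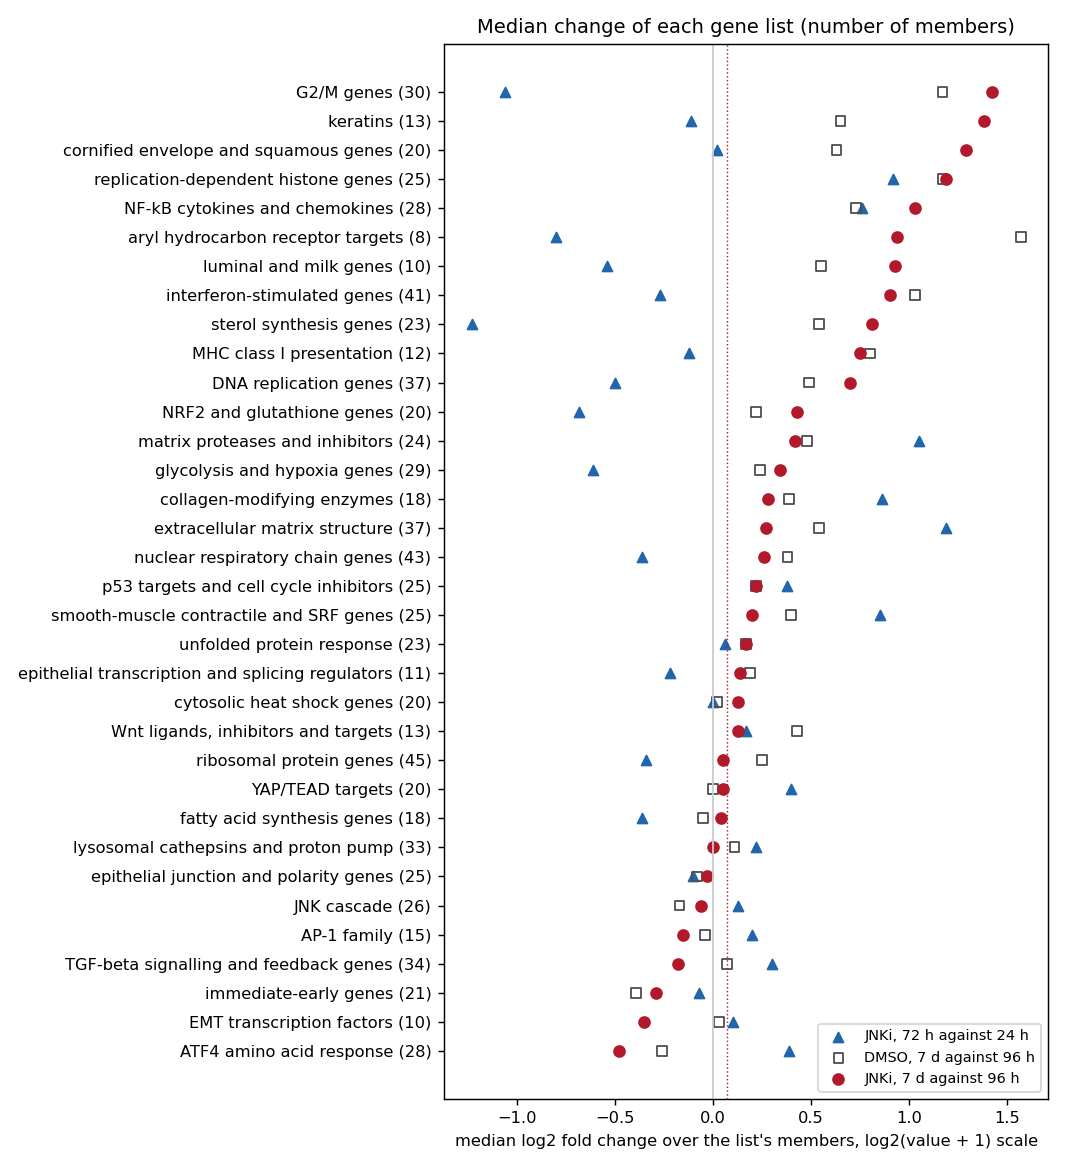
Median log2 fold change (x axis, log2(value + 1) scale) over the members of each gene list (y axis, with the number of members). Filled circles are JNKi at 7 d against 96 h, open squares DMSO at 7 d against 96 h and triangles JNKi at 72 h against 24 h, and the dotted line is the median of all members, 0.07. The G2/M list has the highest JNKi late median, 1.42, and the ATF4 list the lowest, -0.48. Medians are over all members, and those included only through 7 d, absent from these lists, can raise the JNKi late median of other lists.

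Genes of cell division rose together. All 30 members of the G2/M list, genes used in mitosis, were higher at 7 d, with a median change of 1.42, against 23.2% of all genes tested. They were also higher in vehicle cells, 30 of 30 with a median of 1.17, and all 30 had fallen in JNKi cells from 24 to 72 h. Relative to 24 h, the list's median stood at -2.02 and -2.00 in the 96 h libraries and at -0.69 and -0.64 at 7 d, so its 7 d level lay between the 24 h level and the 96 h low. Each of the 4 runs without 1 JNKi library called all 30.

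Aurkb, a kinase of chromosome segregation, had 263 and 249 normalized reads at 96 h and 1173 and 1175 at 7 d. The groups did not overlap, and the change was 2.19 (SE 0.16, adjusted p 1.83e-07). At 24 h Aurkb had 2009 and 2791, so 7 d stayed below the first time point. Cdca3, a trigger of mitotic entry, had 328 and 338 at 96 h and 1195 and 1233 (1.86, SE 0.15, adjusted p 5.38e-07) at 7 d. Top2a, the topoisomerase that untangles DNA, went from 4377 and 4239 to 10018 and 10343 (1.24, SE 0.10). The smallest change of the list was 0.64 (SE 0.10), in the spindle protein gene Tpx2.

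The promoters of Cdca3 and Top2a are shown because G2/M genes share promoter elements that genes at large hold less often. RefSeq promoters (GRCm38.p6, 250 bases before to 50 after each start) were matched for 26 of the 30 members. The CHR element TTTGAA, on either strand, was in 21 of their 27 promoters (77.8%) and in 17.9% of all 32851 promoters. The CCAAT box CCAAT was in 24 of 27 (88.9%) and in 37.4% of all. Capitals mark both elements, with their reverse complements TTCAAA and ATTGG. The promoter of Cdca3 is chr6:124829926-124830225 on the plus strand and that of Top2a chr11:99024140-99024439 on the minus strand, each written 5′ to 3′ along the gene.
Cdca3: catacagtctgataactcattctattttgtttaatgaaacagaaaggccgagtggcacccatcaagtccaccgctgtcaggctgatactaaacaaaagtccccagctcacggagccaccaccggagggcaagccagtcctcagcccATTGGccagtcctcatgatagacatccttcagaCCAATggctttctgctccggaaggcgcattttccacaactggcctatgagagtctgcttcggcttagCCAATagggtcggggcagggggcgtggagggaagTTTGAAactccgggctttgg
Top2a: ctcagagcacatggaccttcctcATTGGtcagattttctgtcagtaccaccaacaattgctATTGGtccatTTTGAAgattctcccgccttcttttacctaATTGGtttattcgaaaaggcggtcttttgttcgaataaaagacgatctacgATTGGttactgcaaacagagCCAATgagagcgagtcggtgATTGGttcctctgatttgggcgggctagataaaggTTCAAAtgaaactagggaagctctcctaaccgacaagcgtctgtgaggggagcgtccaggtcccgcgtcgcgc

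DNA replication genes followed the mitotic genes with smaller changes. Of 37 members, 30 were higher and none lower, with a median of 0.70, against 23 higher and none lower in vehicle cells (0.49) and 30 lower from 24 to 72 h. Tk1, thymidine kinase, had 225 and 215 at 96 h and 860 and 695 at 7 d (1.81, SE 0.24). Rrm2, the small subunit of ribonucleotide reductase, went from 1224 and 1290 to 3677 and 3220 (1.45, SE 0.15). Mcm7, Pola1, Mcm2, Cdt1, Orc6, Gins4 and Pold1 did not pass, and they were named for that reason after their values were seen. An E2F site (TTTCCCGC or TTTGGCGC) was in 10 of 35 RefSeq promoters of the list (28.6%) and in 1.56% of all. The count was 20 without JNKi 96 h replicate 1.

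Some replication-dependent histone genes and cell cycle inhibitors were also higher, but without an early fall of their lists. Of 25 histone genes 10 were higher and none lower, of which 7 among the 17 with a mean of at least 10 at 96 h. The share called of the 25 is near the 39.7% of all genes tested. From 24 to 72 h, 7 of them were higher and none lower. The list's median relative to 24 h was 2.07 and 2.1 at 96 h and 3.11 and 3.2 at 7 d. The 10 became 5, 4, 6 and 5 when each of the 4 JNKi libraries was left out, and 18 with a pseudocount of 8 or by edgeR. These genes are near-identical copies, so reads could be split between them. Of 25 p53 targets and cell cycle inhibitors 11 were higher and 1 lower, against 23.2% and 16.6% of all genes tested. From 24 to 72 h, 14 of these were higher and 4 lower. Fas, a death receptor, had 89.7 and 71.3 at 96 h and 441 and 724 at 7 d (2.81, SE 0.27), and Cdkn2c, a cyclin-dependent kinase inhibitor, had 60.0 and 54.7, then 205 and 202 (1.81, SE 0.22). Mdm2, the p53 ubiquitin ligase, had 144024 and 144690 at 96 h and 134952 and 142843 at 7 d and did not pass (adjusted p 0.761).

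**Figure D2:**
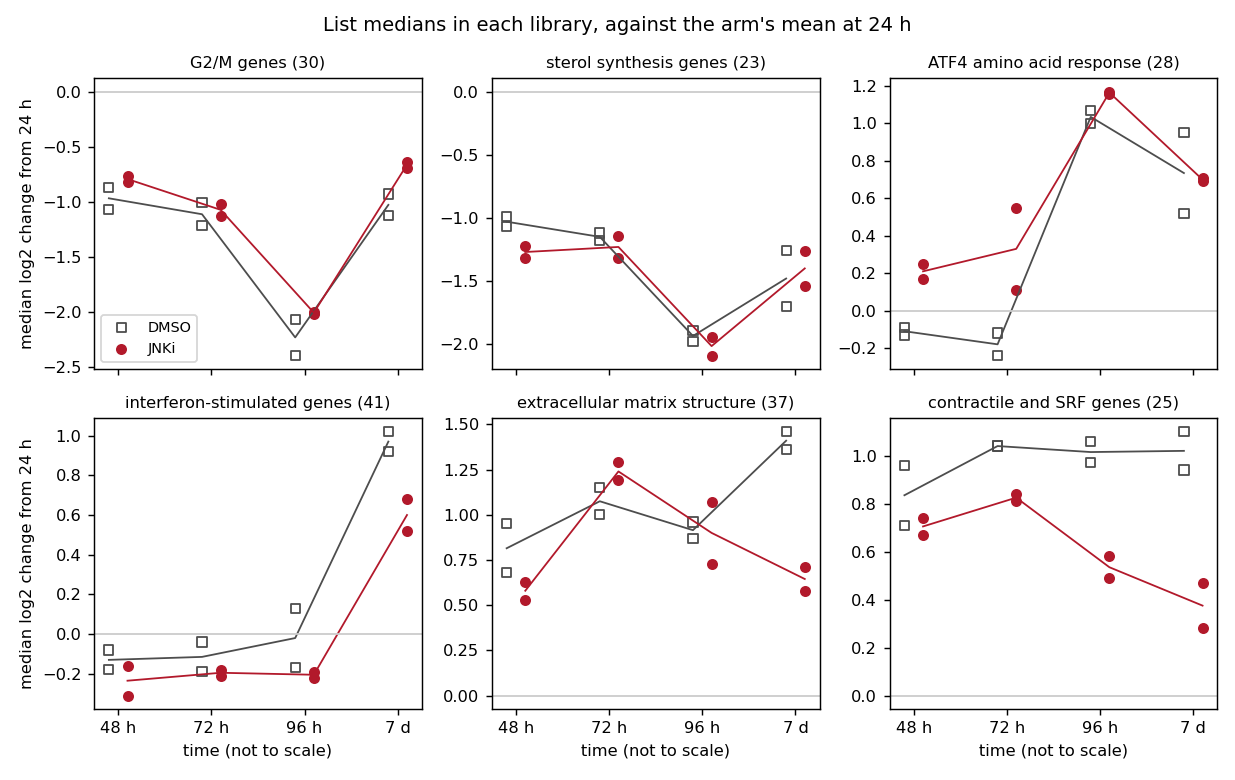
Median log2 change of 6 gene lists from the arm's own mean at 24 h (y axis, log2(value + 1) scale) in each library, by time (x axis, not to scale). Filled circles are JNKi libraries, open squares DMSO libraries and lines join the means of 2 libraries. In JNKi cells the G2/M list sits near -2.0 at 96 h and between -0.69 and -0.64 at 7 d, and the interferon list is above 0 only at 7 d.

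Sterol synthesis genes rose late after an early fall. Of 23 members 19 were higher, with a median of 0.81, and all 23 had fallen from 24 to 72 h. In vehicle cells 16 were higher (median 0.54). Idi1, isopentenyl diphosphate isomerase, had 415 and 344 at 96 h and 1173 and 1228 at 7 d (1.66, SE 0.19, adjusted p 8.67e-06). Cyp51, lanosterol demethylase, went from 7394 and 6358 to 13137 and 15021 (1.03, SE 0.14). For both genes the 7 d libraries were above the 96 h libraries and below those of 24 h, where Idi1 had 4642 and 5087 and Cyp51 48930 and 61165. Srebf2, the transcription factor gene of the pathway, did not pass (0.22, adjusted p 0.246). The list's median relative to 24 h was -1.94 and -2.09 at 96 h and -1.54 and -1.26 at 7 d.

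Promoters were matched for 14 sterol genes. The CCAAT box was in 14 of 17 promoters (82.4%, against 37.4% of all), and the SREBP site (ATCAC, any base, CCAC) was in 0 of 17 and in 0.234% of all, which says only that these letters are not in this window. The promoter of Idi1, with its 2 CCAAT boxes in capitals as ATTGG, is shown as an example of the list (GRCm38.p6, chr13:8885356-8885655, plus strand).
Idi1: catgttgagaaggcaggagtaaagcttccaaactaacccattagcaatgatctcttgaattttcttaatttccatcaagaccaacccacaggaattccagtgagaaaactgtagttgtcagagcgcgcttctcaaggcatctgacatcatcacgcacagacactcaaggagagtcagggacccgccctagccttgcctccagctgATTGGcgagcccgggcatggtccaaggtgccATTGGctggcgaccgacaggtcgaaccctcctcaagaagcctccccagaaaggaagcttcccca

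Other metabolic lists moved less. Of 18 fatty acid synthesis genes 2 were higher (at most 1 without any 1 JNKi library) and 4 lower, among them Acaca, acetyl-CoA carboxylase, with 2805 and 2745 at 96 h and 1944 and 1792 at 7 d (-0.57, SE 0.09). Of 20 NRF2 and glutathione genes 12 were higher and 2 lower, and 17 had fallen from 24 to 72 h. Without JNKi 7 d replicate 1, 7 of these were called higher, and upper quartile rescaling gave 14 higher and 1 lower. Nqo1, a quinone reductase, had 19.6 and 15.8 at 96 h and 72.1 and 90.3 at 7 d (2.13, SE 0.27). It also belongs to the 8 aryl hydrocarbon receptor targets, of which 4 were higher (3 of 7 with a mean of at least 10 at 96 h), and 2 of those without any 1 of JNKi 96 h replicate 2 and the 7 d libraries.

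Among 43 nuclear genes of the respiratory chain 20 were higher and 1, Sdha, lower, and in vehicle cells 29 were higher. The calls in JNKi cells were fewer without each library, with 9 and 12 without the 96 h libraries and 6 and 14 without those of 7 d, and upper quartile rescaling gave 24 higher and none lower. Cox7a2, a cytochrome c oxidase subunit, had 726 and 659 at 96 h and 1276 and 1117 at 7 d (0.79, SE 0.14). Of 45 ribosomal protein genes 2 were higher and 3 lower, at most 1 higher without any 1 JNKi library, and 26 had fallen early. Of 29 glycolysis and hypoxia genes 11 were higher and 5 lower, with 7, 4, 6 and 5 higher without each JNKi library. Egln3, a prolyl hydroxylase, rose from 494 and 446 to 998 and 995 (1.08, SE 0.15).

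Amino acid response genes, targets of the stress factor ATF4, fell. Of 28 members 16 were lower and none higher (median -0.48), against 9 lower in vehicle cells (-0.26), and 13 had risen from 24 to 72 h. The list's median relative to 24 h was 1.16 and 1.17 at 96 h and 0.71 and 0.69 at 7 d. The count was 9 without JNKi 96 h replicate 2 and 10 without 7 d replicate 1. Trib3, a pseudokinase of this response, had 6437 and 7435 at 96 h and 3222 and 4360 at 7 d (-0.88, SE 0.24, adjusted p 0.00864), but did not pass without either of those libraries (adjusted p 0.0736 and 0.105). Phgdh, the first enzyme of serine synthesis, had 21908 and 23073, then 23069 and 21288, and did not pass.

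Of 23 unfolded protein response genes 6 were higher and 5 lower, but 11 higher and 3 lower with upper quartile rescaling. Sdf2l1, an endoplasmic reticulum protein, had 347 and 376 at 96 h and 560 and 703 at 7 d (0.80, SE 0.15), while the chaperone Hspa5 did not pass (-0.22, adjusted p 0.219). Without JNKi 7 d replicate 2, 2 members were higher. The lower members numbered 3 without either 96 h library and 2 without 7 d replicate 1. Of 20 cytosolic heat shock genes 6 were higher and 4 lower. Hspa1b, an inducible chaperone with a near-identical copy, had 125 and 114, then 263 and 308 (1.25, SE 0.22).

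Matrix genes went both ways. Of 37 structural matrix genes 15 were higher and 11 lower (9 and 11 of the 30 with a mean of at least 10 at 96 h), with a median of 0.27, and 22 had risen from 24 to 72 h. Fn1, fibronectin, had 289897 and 289609 normalized reads at 96 h and 76921 and 86707 at 7 d (-1.83, SE 0.18, adjusted p 2.39e-06). It had 63372 and 45447 at 24 h, so the 7 d libraries lay above both 24 h libraries. Tnc, tenascin-C, went from 36153 and 32690 to 10345 and 10163 (-1.75, SE 0.13, adjusted p 2.72e-07), and its 24 h libraries had 11339 and 8803, a range that holds both 7 d values. Fbln2, fibulin-2, fell from 190048 and 199361 to 80850 and 83100 (-1.25, SE 0.14).

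Among the matrix genes that rose, some had hardly been detected at 96 h. Thbs2, thrombospondin-2, had 1.3 and 0.8 at 96 h and 27.7 and 21.0 at 7 d, and Col3a1, a fibrillar collagen, had 1.3 and 2.4, then 11.1 and 36.4. Both were included only through 7 d, and their fitted changes, 3.63 and 2.93, became 1.83 and 1.57 with a pseudocount of 8. Col1a1, the main chain of type I collagen, had 989 and 837, then 1500 and 1647 (0.79, SE 0.15). The list's median level relative to 24 h went from 1.07 and 0.73 in the 96 h libraries to 0.58 and 0.71 in those of 7 d, while its median late change was above 0, since a median of levels and a median of changes are different quantities. In vehicle cells that level went from 0.87 and 0.96 to 1.46 and 1.36.

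Of 18 enzymes that crosslink and process collagen 10 were higher and 4 lower, or 8 and 4 of the 16 with a mean of at least 10 at 96 h. Without JNKi 96 h replicate 2 or 7 d replicate 2, 4 and 6 were higher. Lox, lysyl oxidase, was included only through 7 d. It had 1.9 and 5.5 at 96 h and 30.5 and 34.3 at 7 d. Its fitted change of 2.94 (SE 0.59) is 1.80 with a pseudocount of 8. Bmp1, the procollagen C-proteinase, fell from 22108 and 21699 to 15150 and 16404 (-0.47, SE 0.11).

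Of 24 matrix proteases and inhibitors 10 were higher and 5 lower, but 5 and 5 of the 18 with a mean of at least 10 at 96 h, and 14 had risen early. Upper quartile rescaling gave 10 higher and 2 lower. Without any 1 JNKi library, 6 or 7 were higher and at most 3 lower. Adamts12, a metalloprotease of the ADAMTS family included only through 7 d, had 6.9 and 4.8, then 41.6 and 37.8 (2.59, SE 0.46). Timp2, an inhibitor of matrix metalloproteinases, did not pass (0.11, adjusted p 0.512). An AP-1 site, TGANTCA, was in 6 of 19 RefSeq promoters of the list (31.6%) and in 7.81% of all.

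Contractile genes also went both ways. Of 25 smooth-muscle and SRF genes 11 were higher and 5 lower (8 and 5 of the 22 with a mean of at least 10 at 96 h), and 18 had risen from 24 to 72 h. Acta2, smooth-muscle α-actin, had 758 and 627 at 96 h and 6144 and 6791 at 7 d (3.23, SE 0.29, adjusted p 1.21e-06). The 24 h libraries had 30.4 and 28.8 and the 72 h libraries 1514 and 2582, so both 7 d libraries were above every earlier JNKi library. Actg2, γ-smooth-muscle actin, rose from 99.8 and 84.8 to 657 and 825 (2.99, SE 0.49).

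The 5 that fell were Actn1, Flna, Myh9, Srf and Mkl1, which were named because of the small count. Myh9, nonmuscle myosin heavy chain, had 123172 and 111592 at 96 h and 87735 and 88681 at 7 d (-0.41, SE 0.12, adjusted p 0.0104), but did not pass without 96 h replicate 1 (0.0957) or 7 d replicate 1 (0.056). Without either of those libraries, 2 members of the list were lower, and without 96 h replicate 2, 7 were higher. Tagln, another smooth-muscle marker, had 1947 and 2228, then 2798 and 2704, and did not pass (0.40, adjusted p 0.153). Vim, vimentin, rose from 35179 and 32656 to 51756 and 49953 (0.59, SE 0.10).

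Genes of TGF-β signalling were divided, 9 higher and 10 lower of 34. Id3, an inhibitor of differentiation factors, had 258 and 249.6 at 96 h and 763 and 1023 at 7 d (1.80, SE 0.22). Ltbp2, a matrix protein related to the binders of latent TGF-β, rose from 131 and 128 to 452 and 491 (1.85, SE 0.24), and Ltbp3 fell from 18584 and 17047 to 11934 and 12404 (-0.55, SE 0.09). Pmepa1, a feedback inhibitor, did not pass (-0.26, adjusted p 0.0573). Of 20 YAP/TEAD targets 3 were higher and 7 lower, and at most 2 higher without any 1 JNKi library. Ctgf, connective tissue growth factor, had 133935 and 130990, then 72355 and 76947 (-0.83, SE 0.15).

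**Figure D3:**
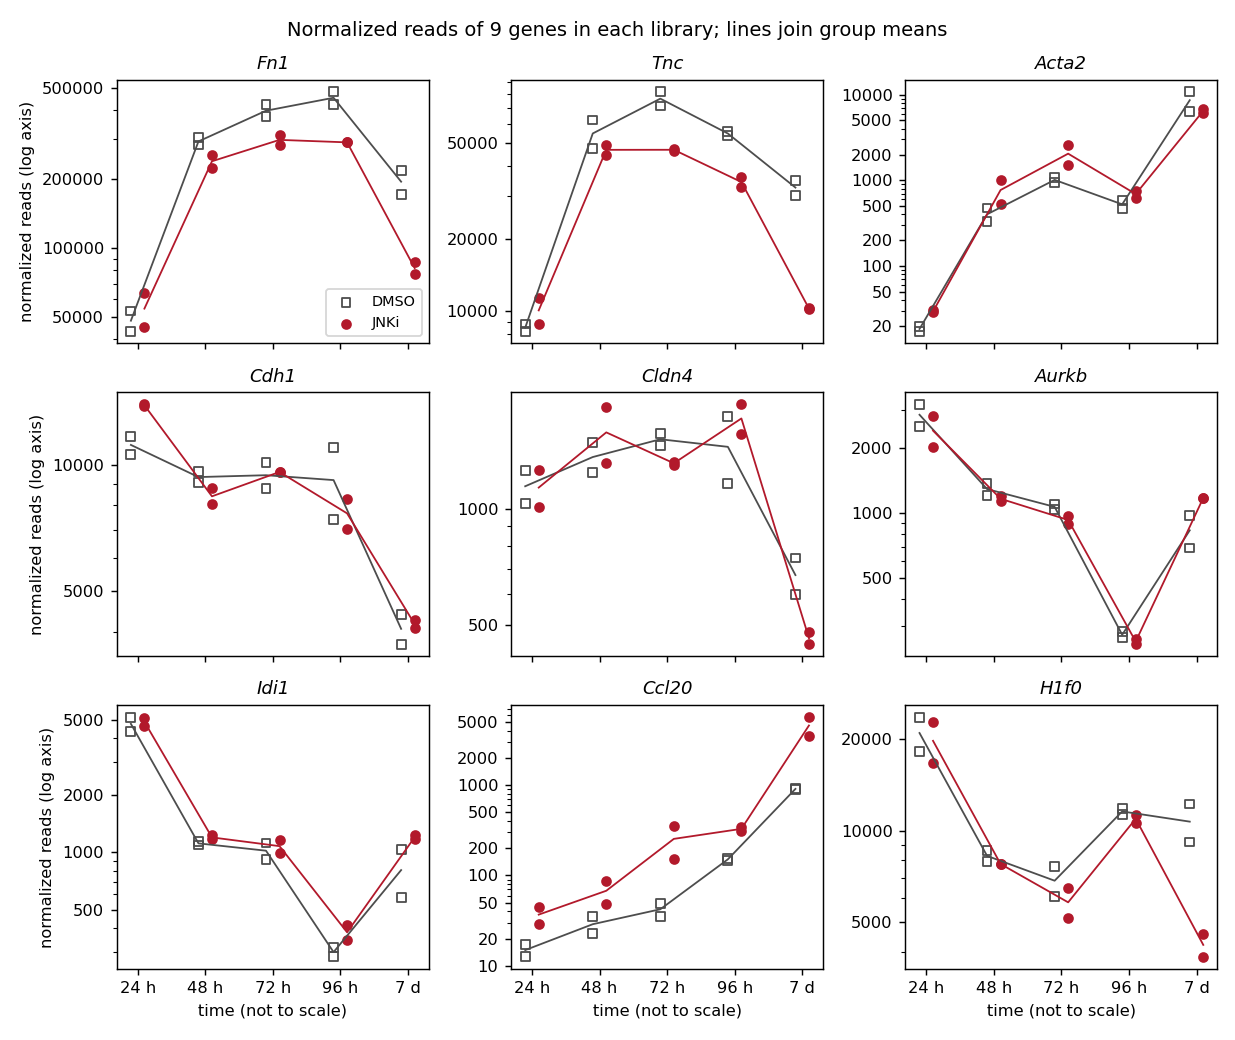
Normalized reads (y axis, log scale) of 9 genes in each library by time (x axis, not to scale). Filled circles are JNKi libraries, open squares DMSO libraries and lines join the means of 2 libraries. In JNKi cells Fn1 and Tnc are lower and Acta2, Aurkb, Idi1 and Ccl20 higher at 7 d than at 96 h in both libraries.

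Junction genes went both ways, and E-cadherin, claudin-4 and occludin fell. Of 25 epithelial junction and polarity genes 5 were higher and 7 lower (3 and 7 of the 22 with a mean of at least 10 at 96 h), and the median was -0.03 (0.03 with upper quartile rescaling). Cdh1, E-cadherin, had 8279 and 7045 at 96 h and 4090 and 4272 at 7 d (-0.87, SE 0.14, adjusted p 0.000182). Cldn4, a tight-junction claudin, fell from 1561 and 1859 to 446 and 479 (-1.88, SE 0.19), below its 24 h libraries of 1008 and 1259. Ocln, occludin, started from 435 and 430 in the 24 h libraries and had 301 and 291, then 141 and 129 (-1.13, SE 0.22). Jup, plakoglobin, had 17064 and 16634, then 16758 and 17038, and did not pass.

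Several EMT transcription factors fell at the same time. Of 10 members 5 were lower and none higher (median -0.35). Sox4 had 13817 and 14249 at 96 h and 6344 and 6519 at 7 d (-1.13, SE 0.15), and Hmga2, a chromatin protein, fell from 5330 and 6089 to 2831 and 2324 (-1.15, SE 0.15). Zeb1, a repressor of Cdh1, had 2461 and 2342, then 1719 and 1556 (-0.55, SE 0.10). Its relative Zeb2 (-0.10, adjusted p 0.486) and Snai1 (0.46, adjusted p 0.115) did not pass. Cdh2, N-cadherin, fell from 13747 and 13752 to 8848 and 9207 (-0.61, SE 0.09). Both cadherins were thus lower at 7 d.

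Basal keratins and several squamous genes were higher. Of 13 keratins 7 were higher and 2 lower, or 6 and 2 of the 11 with a mean of at least 10 at 96 h (median of all 13 members 1.38), with 4 higher without JNKi 96 h replicate 2 and at most 1 lower without any 1 JNKi library. The keratin median was 0.69 with a pseudocount of 8 and 0.94 without JNKi 7 d replicate 1. Krt14, a basal keratin, had 12 and 14.3 at 96 h and 225 and 199 at 7 d (3.91, SE 0.42). Of 20 cornified envelope and squamous genes 11 were higher and 2 lower (7 and 2 of the 13 with a mean of at least 10 at 96 h), and 7 higher and 1 lower without any 1 of JNKi 96 h replicate 2 and the 7 d libraries. S100a9, a calcium-binding alarmin included only through 7 d, had 13.3 and 6.3, then 69.3 and 99.4 (3.04, SE 0.55). Ivl, involucrin, fell from 840 and 865 to 275 and 286 (-1.60, SE 0.14). Ehf, an epithelial ETS factor, rose from 337 and 254 to 646 and 667 (1.16, SE 0.20).

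Transcripts of the targeted pathway do not report kinase activity. Mapk8 and Mapk9, which encode JNK1 and JNK2, did not pass (-0.26, adjusted p 0.135, and 0.19, adjusted p 0.0654). Mapk8 had 981 and 1015 at 96 h and 890 and 780 at 7 d. Of 26 JNK cascade genes 2 were higher and 7 lower, a share near the 39.7% of all genes tested, and both higher ones were among the 2 members included only through 7 d. The lower ones numbered 2, 4, 5 and 4 without each JNKi library, and upper quartile rescaling gave 5 higher and 6 lower. Dusp4, a phosphatase of MAP kinases, had 11996 and 12638, then 6302 and 6076 (-0.99, SE 0.26).

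Of 15 AP-1 family genes 4 were lower and none higher, and 1 without JNKi 7 d replicate 1. Atf3 had 3813 and 4537 at 96 h and 1126 and 1625 at 7 d (-1.62, SE 0.40, adjusted p 0.00477), and did not pass without that library (-1.36, adjusted p 0.0568). Jun had 2213 and 2565, then 1520 and 1899 (-0.49, SE 0.15, adjusted p 0.0187), and did not pass without 96 h replicate 2 (0.156) or 7 d replicate 1 (0.197). Egr1, an immediate-early factor picked after its values were seen, had 3530 and 243 at 96 h and 63.8 and 72.8 at 7 d. Its fitted change of -3.75 (SE 1.46) did not pass (adjusted p 0.0514), as the 96 h libraries lay far apart.

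Interferon-stimulated genes rose late without an early rise of the list. Of 41 members 25 were higher and none lower (21 of the 35 with a mean of at least 10 at 96 h), with a median of 0.90, with 31 higher in vehicle cells (1.03), and from 24 to 72 h 5 were higher and 8 lower. The list's median relative to 24 h was -0.22 and -0.19 at 96 h and 0.52 and 0.68 at 7 d. Without JNKi 96 h replicate 2 or 7 d replicate 1, 14 and 15 were called. Cxcl10, a chemokine for T cells, had 41.7 and 21.4 at 96 h and 363 and 508 at 7 d (3.80, SE 0.38, adjusted p 2.84e-06). Gbp3, a guanylate-binding protein, went from 18.9 and 18.2 to 169 and 167 (3.11, SE 0.33), and Irf1, a transcription factor of the response, did not pass (0.38, adjusted p 0.207).

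Genes of MHC class I presentation moved with them, 10 higher and 1, Erap1, lower of 12 (11 with a mean of at least 10 at 96 h). B2m, the invariant light chain, had 4961 and 5569 at 96 h and 8033 and 9251 at 7 d (0.71, SE 0.09). Tapbp, the chaperone tapasin, rose from 3756 and 3075 to 5989 and 6743 (0.90, SE 0.10), and Tap1, a peptide transporter subunit, from 68.2 and 54.7 to 133 and 185 (1.35, SE 0.29).

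The interferon response element core (GAAA, any 2 bases, GAAA), on either strand, was in 15 of 35 RefSeq promoters of the interferon list (42.9%, 29 of 41 members matched), in 4 of 12 of the MHC list (33.3%) and in 3.44% of all. It is in capitals in the promoters of Cxcl10 (GRCm38.p6, chr5:92348840-92349139, minus strand) and B2m (chr2:122147437-122147736, plus strand), shown as a member of each list that rose.
Cxcl10: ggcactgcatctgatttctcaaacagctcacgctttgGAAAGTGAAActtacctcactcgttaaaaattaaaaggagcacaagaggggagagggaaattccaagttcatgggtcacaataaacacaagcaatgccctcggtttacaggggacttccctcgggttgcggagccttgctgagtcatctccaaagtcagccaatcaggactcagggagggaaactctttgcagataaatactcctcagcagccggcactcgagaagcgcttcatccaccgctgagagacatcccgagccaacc
B2m: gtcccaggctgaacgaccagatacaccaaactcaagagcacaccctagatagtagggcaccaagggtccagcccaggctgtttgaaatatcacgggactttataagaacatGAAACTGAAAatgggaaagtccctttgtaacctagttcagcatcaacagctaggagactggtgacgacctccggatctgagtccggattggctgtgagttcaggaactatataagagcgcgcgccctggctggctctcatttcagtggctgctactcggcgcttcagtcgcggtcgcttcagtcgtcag

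Chemokines carried some of the largest rises. Of 28 NF-kB cytokine and chemokine genes 16 were higher and 4 lower, or 14 and 4 of the 25 with a mean of at least 10 at 96 h (median of all 28 members 1.03), against 17 and 3 in vehicle cells (0.73), and 13 had risen early. Only 10 were higher without JNKi 96 h replicate 2. Ccl20, a chemokine for dendritic cells and lymphocytes, had 344 and 312 at 96 h and 3472 and 5646 at 7 d (3.75, SE 0.37, adjusted p 2.39e-06), after 45.0 and 28.8 at 24 h. Ccl7 rose from 175 and 107 to 1622 and 1918 (3.68, SE 0.35), and Ccl2, a monocyte chemokine, from 5920 and 3858 to 15935 and 21402 (1.95, SE 0.25). The NF-kB site (GGG, any 2 bases, TTTCC) was in 10 of 21 RefSeq promoters of the list (47.6%) and in 1.63% of all.

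Other genes among the largest rises have roles outside these lists. Aldh1a1, which makes retinoic acid, had 111 and 63.4 at 96 h and 1500 and 1678 at 7 d (4.22, SE 0.25, adjusted p 8.88e-08). Its close copy Aldh1a7 had 11.4 and 7.1, then 205 and 212, and reads could be split between the copies. Pou5f1, the pluripotency factor Oct4, had 0 and 0.8 at 96 h and 47.1 and 58.1 at 7 d, and its fitted change of 5.31 is 2.85 with a pseudocount of 8. Pglyrp3, a peptidoglycan-binding protein, went from 7.6 and 7.1 to 130 and 239 (4.41, SE 0.64). Mrvi1, a substrate of cGMP-dependent kinase, rose from 12.6 and 16.6 to 172 and 198 (3.58, SE 0.32). Aldh1a7, Pou5f1 and Pglyrp3 were included only through 7 d, which fixes their direction.

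Agt, angiotensinogen, had 11.4 and 4.0, then 147 and 126 (4.12, SE 1.04), and did not pass without 96 h replicate 2 (adjusted p 0.0601). Adcy1, an adenylate cyclase, had 3.2 and 2.4, then 63.8 and 37.1, and Pik3r6, a subunit of phosphoinositide 3-kinase γ, 6.3 and 5.5, then 83.2 and 79.1. All 3 had at most 11.4 reads in a 96 h library. They too were included only through the later time, which fixes their direction. The fitted change of Adcy1, 3.72, is 2.40 with a pseudocount of 8.

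Among the largest falls, Chka, choline kinase, went from 6653 and 6891 to 2376 and 2361 (-1.52, SE 0.19), and Areg, amphiregulin, a ligand of the epidermal growth factor receptor, from 3491 and 3389 to 1370 and 1230 (-1.40, SE 0.20). Il11, a cytokine of the IL-6 family, fell from 9568 and 9922 to 3078 and 3824 (-1.51, SE 0.22), and Gm129 from 800.0 and 932 to 283 and 358 (-1.44, SE 0.36). Txnip, which binds thioredoxin, had 4497 and 4606, then 1206 and 1863 (-1.60, SE 0.44, adjusted p 0.00916), and did not pass without 96 h replicate 2 (0.0515) or 7 d replicate 1 (0.0934). Hhipl1 had 68.8 and 62.6, then 2.8 and 21.0 (-2.87, SE 0.74), and did not pass without 7 d replicate 1 (-1.60, adjusted p 0.124). Car6, a secreted carbonic anhydrase, had 53 and 69.7, then 11.1 and 16.1 (-2.10, SE 0.65), and did not pass without 96 h replicate 2 (0.107) or 7 d replicate 1 (0.104).

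Markers of other cell types were read beside these rises. Of 7 included basal or myoepithelial markers, 5 had a mean of at least 10 at 96 h and were called higher, while Oxtr and Myh11 were included only through 7 d. The sum of all listed went from 1577 and 1207 to 7750 and 8455, most of it Acta2. Krt5, a defining basal keratin, had 18.3 and 19.8, then 61.0 and 56.7, and Trp63, the basal transcription factor, had 0.6 and 3.2, then 13.9 and 4.9. Of 8 included leukocyte markers 4 had a mean of at least 10 at 96 h, and of these Cd14 and Laptm5 were higher. The other 4 were included only through 7 d, which fixes their direction, and the sum of all listed went from 1664 and 1374 to 2507 and 2355. The defining leukocyte markers Cd3e, Cd52 and Tyrobp had at most 0.7 reads in any of the 4 libraries, and Ptprc had 1.9 and 3.2, then 11.1 and 17.5.

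Fibroblast markers summed to 1260.4 and 1044 at 96 h and 1919 and 2182 at 7 d, with 2 of the 4 that reached 10 at 96 h higher and Lum at most 3.5. Endothelial markers summed to 718 and 677, then 840.1 and 857, with 1 of the 4 that reached 10 at 96 h higher and Emcn at most 3.5. Both included adipocyte markers were so only through 7 d, with sums of 31.0 and 12.7, then 63.8 and 47.6, and Plin1 at most 2.1. Neuronal and glial markers summed to 1620 and 1556, then 2238 and 2197, most of it Mbp, with 2 higher and 1 lower of the 3 that reached 10 at 96 h and Snap25 at most 2.8. The part of other cells in the rises was not tested.

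Among genes called in both JNKi intervals, which share no library, more reversed than went further. Of the 2834 members that rose from 24 to 72 h, 715 (25.2%) fell late and 562 (19.8%) rose further, against 16.6% lower and 23.2% higher over all genes tested. Of the 2627 that fell early, 1011 (38.5%) rose late and 229 (8.72%) fell further. From the side of the late change, 31.1% of the late falls and 31.6% of the late rises were reversals, and 17.6% of the late rises and 9.95% of the late falls were further changes. These overlaps were counted and not tested. Both comparisons use the same fitted spread of each gene, so their calls are not independent. Members that reached 10 only at 7 d are included, and their late calls, 686 in all, could only be rises. Such members can enter only the classes that rose late, and the classes were not recounted without them. Most reversed genes had not reached or passed their 24 h mean by 7 d. Genes that came close to that mean without reaching it count as short of it, so return within the spread was not counted. At 7 d, 152 of the 715 (21.3%) stood at or below their 24 h mean and 114 of the 1011 (11.3%) at or above it.

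The step from 72 to 96 h lies in neither comparison. Genes that fell and then rose had median levels relative to 24 h of -0.69 by 72 h, -1.26 by 96 h and -0.50 by 7 d. Genes that rose and then fell had 0.45, 0.73 and 0.26. Genes that rose in both intervals had 1.32, 0.95 and 2.27, and genes that fell in both had -0.39, -0.29 and -0.70. The classes were chosen by these same JNKi values, which favours the moves between 72 and 96 h. Those moves are therefore not results of their own. In vehicle cells, whose levels did not set the directions, genes that fell then rose had -0.71, -1.35 and -0.72. Those that rose then fell had 0.52, 0.83 and 0.44. Genes of the class that rose in both had 1.03, 0.81 and 1.79, and of that which fell in both -0.38, -0.25 and -0.54.

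Each class is shown by the genes with the largest changes in both intervals. Among those that rose further were Acta2, Srpx2, a sushi-repeat protein gene with means of 1.7, 20.6, 8.55 and 88.1 reads at 24, 72 and 96 h and 7 d, Colq, the collagen tail of acetylcholinesterase, and Jph2, a junctional membrane protein of muscle with 15.8 and 15.8, then 133 and 139 (3.03, SE 0.42). Srpx2 and Colq were included only through 7 d. Fn1, Tnc, Ivl and Il11 led those that rose and then fell. Ivl had 90.0 and 81.5 at 24 h, so its 7 d libraries stayed above the start.

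H1f0, a linker histone, Areg, Ocln and Ier2 led those that fell further. H1f0 had 16666 and 22818 in the 24 h libraries, 6477 and 5159 by 72 h, 10613 and 11278 by 96 h, then 4581 and 3853 (-1.38, SE 0.17). It was thus higher at 96 h than at 72 h before it fell again. Ier2, an immediate-early gene, did not pass without 96 h replicate 1 (-0.71, adjusted p 0.184) or either 7 d library (0.0683 and 0.0725).

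Eps8l3, related to the actin regulator Eps8, Tmigd1, an adhesion protein, Cyp2c65, a cytochrome P450, and Fbp2, a fructose bisphosphatase, led the genes that fell and then rose. Of these, Eps8l3 and Tmigd1 were included only through 7 d. Eps8l3 had 47.2 and 68.7 in the 24 h libraries, 2.5 and 2.4 by 96 h, then 49.9 and 39.2 at 7 d, so it had returned near its start. In vehicle cells it had 2.0 and 1.8 at 96 h and 1.7 and 7.4 at 7 d. Its fitted late change differed between the arms by 3.0 (SE 0.69) without passing (adjusted p 0.118).

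In the late interval most genes of each class, except those that fell in both intervals, were also called the same way in vehicle cells. Over all genes tested, 21% were called higher there and 15.5% lower. Of the 562 genes that rose in both JNKi intervals, 352 were also called higher in vehicle cells and 2 lower. The numbers were 476 and 2 of the 715 that rose and then fell, 114 and 2 of the 229 that fell in both, and 751 and 3 of the 1011 that fell and then rose, in each case first those called in the JNKi direction. The JNKi and DMSO late comparisons share no library, but they share the times of harvest. Without JNKi 96 h replicate 2 the 4 classes in the same order held 321, 478, 136 and 693 genes, without 7 d replicate 2 349, 502, 146 and 764, without 24 h replicate 2 396, 409, 131 and 622, and without 72 h replicate 2 398, 544, 127 and 727.

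The fit without a replicate term called a different late change under inhibition for 11 genes. Of these, 5 changed more upward in JNKi cells (0.036% of all genes tested) and 6 more downward (0.0432%). In that fit 1532 members had an unadjusted p under 0.05. A term for the replicate number within each time gave 719 genes, with all 11 among them. Gpbar1, a bile acid receptor, had 29.5 and 23.9 at 96 h and 139.7 and 219.7 at 7 d in vehicle cells, and 39.8 and 32.5, then 38.8 and 38.5 under JNKi. The groups overlapped in JNKi cells and not in vehicle cells, a difference of -2.58 (SE 0.34, adjusted p 0.0118). Mcam, an adhesion molecule of the immunoglobulin family, had 1934 and 2291, then 5984 and 5762 in vehicle cells and 1646 and 1429, then 1891 and 1811 under JNKi (-1.21, SE 0.20, adjusted p 0.0315).

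Slc41a3, a magnesium transporter gene, likewise rose in vehicle cells and did not pass in JNKi cells (difference -1.28, SE 0.22). Enah, which extends actin filaments, fell in JNKi cells from 7516 and 7488 to 5121 and 5020.4 and did not pass in vehicle cells, with 7822 and 8258, then 9234 and 9045 (difference -0.75, SE 0.12). Txndc5, a disulfide isomerase, also fell in JNKi cells and did not pass in vehicle cells (difference -0.57).

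In the other direction, Alcam, an adhesion molecule, rose in JNKi cells from 590 and 514 to 835 and 933 and fell in vehicle cells from 609 and 434 to 359 and 387 (difference 1.14, SE 0.18, adjusted p 0.0254). Ank, a pyrophosphate transporter (0.77), and Spire2, an actin nucleator (1.02), rose in JNKi cells and fell in vehicle cells too. Ugdh, which makes UDP-glucuronate for proteoglycans and hyaluronan, rose in JNKi cells from 5185 and 4934 to 8862 and 8347 and had 4705 and 5020.1, then 4812 and 5069 in vehicle cells (0.74, SE 0.12). Amot, angiomotin, a partner of YAP, rose in JNKi cells from 878 and 915 to 1528 and 1769 (difference 0.78).

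The count depended on the libraries and the setting, and most of all on a term for the replicate number within each time. Without any 1 of the 4 JNKi libraries, or of DMSO 96 h replicate 1 and 7 d replicate 1, 0 or 1 gene was called, and without DMSO 96 h replicate 2 or 7 d replicate 2, 28 and 52, of which 8 and 10 were among the 11. DESeq2 on recovered reads called 132 and edgeR 19. Tnc (-1.0, SE 0.19, adjusted p 0.0549) and H1f0 (-1.25, SE 0.24, adjusted p 0.0544) came close to the threshold, and Fn1 did not (-0.60, SE 0.25, adjusted p 0.386). A p that misses the threshold does not show that the arms changed alike.

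**Figure D4:**
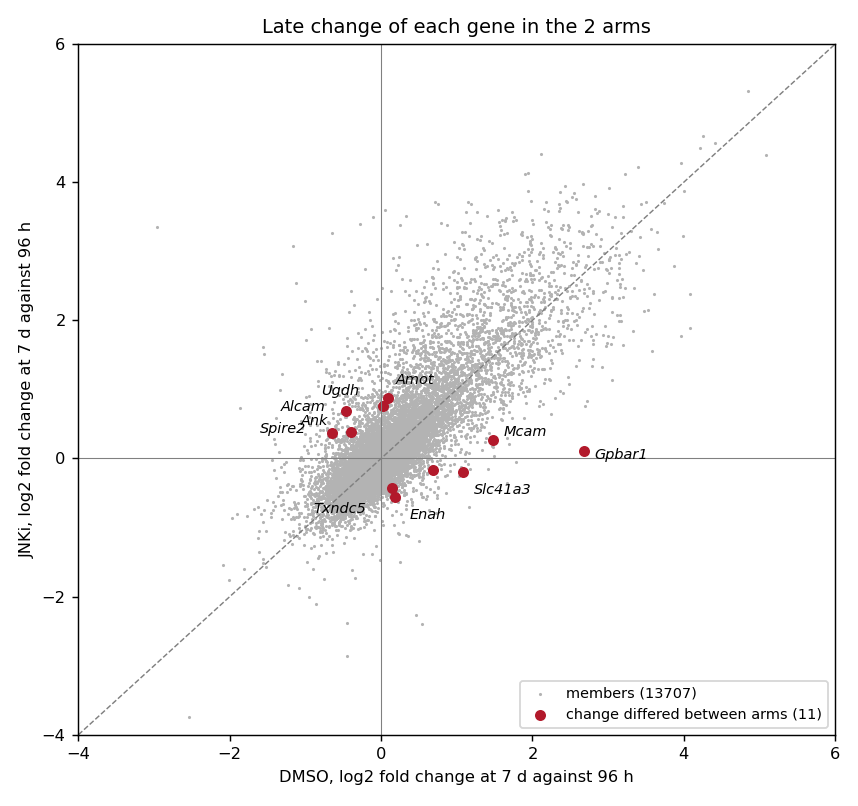
Log2 fold change of each of 13707 genes at 7 d against 96 h in DMSO cells (x axis) and in JNKi cells (y axis), log2(value + 1) scale. Filled circles mark the 11 genes whose change differed between the arms in the fit without a replicate term, 10 of them named. The dashed line marks equal change. Gpbar1 lies at 2.68 in DMSO cells and 0.10 in JNKi cells, the farthest of the 11 from the line.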

How the data were processed

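RNA-seq of the 20 inhibitor-experiment libraries was used. The authors deposited a signal table of normalized read counts per gene, with 20261 genes. Per the submitters' processing notes, TopHat, HTSeq and DESeq were used with the mouse build mm9. Settings and versions were not given in the sources used here. Each column was made of whole reads divided by 1 factor per library: 100% of values came out whole within 0.1, and these recovered reads served for depth, edgeR and DESeq2. Strand use in counting is not given, so overlapping and near-identical genes are uncertain. The other 15 samples are in a separately normalized table, not used here.

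Values were set to log2(value + 1). In R 4.3.3, limma 3.58.1 was fitted with an intensity trend to all 20 libraries, with 1 mean per group, over the 13896 genes whose mean reached 10 in at least 1 of the 10 groups. Calls used a Benjamini-Hochberg adjusted p of 0.05. Counts are over 13707 members. Depth ran from 9.49 to 48.6 M reads, and replicates differed by more than counting error, the chi-square divided by its degrees of freedom being 11.7 between the JNKi 96 h libraries and 29.2 between those of 7 d.

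Named genes were taken by rule. These were the 12 largest rises and 12 largest falls past the threshold with no overlap between groups and a mean of at least 50 in either, and up to 6 each way for the difference between arms. In each early and late class the 4 genes with the largest smaller change of the 2 intervals were taken, and each list gave at most 4, namely its 2 largest called changes and its 2 highest means. A fixed set was always included: Acta2, Tagln, Vim, Fn1, both cadherins, Snai1, both Zeb genes, Jun, both JNK genes and Lars2. Some genes taken by the rule are not reported here, and genes named outside the rule, which are Egr1, members named for a small count, genes at the limit of inclusion and genes that check libraries or cell types, were picked after their values were seen. The members and lists were chosen with earlier results of these data known, so the lists carry no test of their own. Alternatives covered the pseudocount, the filter, TMM and upper quartile rescaling, limma settings, edgeR 4.0.16 and DESeq2 1.42.0 on recovered reads, the replicate number as a block and each library left out. The fit was tested on simulated data, where calls among unchanged genes exceeded the nominal share, a limit on every count of calls. Promoter sequences are from RefSeq (GRCm38.p6), a later build than that of the table, and were matched by gene symbol.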

Additional observations from a re-analysis of the deposited data

Results flagged for a closer look

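The late change differed between JNKi and DMSO cells, by limma's test of that difference over all genes without a replicate term, in 11 genes. The values below, for 10 of them, are JNKi minus DMSO on the log2(value + 1) scale. Lower under inhibition were Gpbar1 (-2.58), Slc41a3 (-1.28), Mcam (-1.21), Enah (-0.75) and Txndc5 (-0.57). Higher were Alcam (1.14), Spire2 (1.02), Amot (0.78), Ank (0.77) and Ugdh (0.74). With 2 libraries a group, none of the 4 late groups was large enough for a check of single outlying libraries, and each of the 10 genes lost its call without at least 1 of the 8 libraries.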

How the results depend on the processing

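The number of genes called between 96 h and 7 d in JNKi cells, 5501, stayed between 4799 and 7343 under the other settings and was 3337 to 3917 when 1 of its libraries was left out. Upper quartile rescaling put 68% of those calls higher, against 58.2%. The vehicle count, 5032, was 2593 to 4608 with 1 library left out. The early JNKi count, 5461, was 3150 to 5156 with 1 library left out and 3432 when only the groups compared were fitted. With 1 library left out, genes that rose in both intervals numbered 321 to 506, those that rose then fell 409 to 662, those that fell in both 127 to 201 and those that fell then rose 622 to 965. The count for the difference between arms, 11, was the least stable: 32 with a pseudocount of 8, 26 with no filter, 19 when a group mean had to reach 50, 19 with TMM, 18 with upper quartile rescaling, 2 without the trend, 17 with the robust fit, 19 by edgeR, 132 by DESeq2, 0 to 52 with 1 library left out and 1 without both 7 d replicate 1 libraries. The cause was not tested. Over the named genes that passed in the main fit, no change reversed under the settings rerun for single genes. Those were TMM and upper quartile rescaling, a pseudocount of 8, edgeR, the replicate blocks and each library left out. Sign changes of genes that had not passed were not counted. Among the recomputed values, more lost a pass than gained one. Of the recomputed medians of gene and marker lists, 54 moved and 315 did not. A move was a shift larger than the standard deviation of the list's median change between the 2 replicate numbers.

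Whether replicate numbers pair the samples was judged by the correlation of replicate differences over 9605 genes. Between the arms it was 0.73, 0.59, 0.72, 0.53 and 0.07 at 24, 48, 72 and 96 h and 7 d, and between 96 h and 7 d it was -0.11 in JNKi and -0.22 in DMSO cells. Same-numbered libraries of the 2 arms thus deviated together at the first 4 times, a hint from the data and not from the labels. As 7 d did not reach 0.1, the numbers were not taken as pairs. With a replicate block of 1 term for the number, the JNKi late count was 5726, the vehicle count 5261, the early count 5693 and the difference count 23. With a replicate block within each time the difference count was 719, with all 11 among them. With the numbers crossed at JNKi 7 d the JNKi late count was 5784. Depth limits JNKi 7 d replicate 1 most, with 9.49 M reads.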

Other observations

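Lists of lysosomal and Wnt genes lie outside the account above. In JNKi cells between 96 h and 7 d their shares called were near the 39.7% of all genes tested. Of 33 genes of lysosomal hydrolases and the proton pump 6 were higher and 8 lower, against 11 and 2 in vehicle cells, and the difference between the arms passed for none of them. Without JNKi 96 h replicate 2, 7 d replicate 1 or 7 d replicate 2, 5, 4 and 6 were lower. Ctsh, cathepsin H, had 731 and 601 normalized reads at 96 h and 1134 and 1238 at 7 d (0.84, SE 0.16, limma adjusted p 0.000653). Psap, the precursor of saposins, which activate sphingolipid breakdown, fell from 52535 and 51044 to 32228 and 34971 (-0.63, SE 0.10). Its change in vehicle cells was -0.28.

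Of 13 Wnt ligands, inhibitors and targets 4 were higher and 2 lower (3 and 2 of the 11 with a mean of at least 10 at 96 h), and 2 and 1 without JNKi 96 h replicate 2 or 7 d replicate 1. Axin2, a feedback target of Wnt signalling, rose from 195 and 178 to 410.4 and 354 (1.03, SE 0.19), while the ligand gene Wnt7b fell from 15647 and 15982 to 11723 and 12143 (-0.41, SE 0.11). Ccnd1, cyclin D1, had 19405 and 20349, then 21059 and 20998, and did not pass (adjusted p 0.655).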
